A study of Mus musculus with 4 samples.

Results

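The natural killer (NK) gene complex lies on distal mouse chromosome 6, and was followed here as the stretch from 127000001 to 132000000 of build mm8. It was taken by position alone, as every bin of 5 kb between those bounds, which gave 1000 of the 492493 bins of the autosomes. The 5 Mb on each side, from 122000001 to 127000000 and from 132000001 to 137000000, served as flanks of 1000 bins each. Total histone H3 was measured by ChIP-seq (sequencing of the DNA that an antibody to H3 pulls down) in 4 libraries, 1 per group. Untreated V6.5 mouse embryonic stem (ES) cells, of C57BL/6-129 background, were the reference. The other groups were V6.5 ES cells of that background given 10 uM SB431542, an inhibitor of TGF-beta receptor kinases, for 24 h, myotubes made from C2C12 cells, a mouse muscle line, by 48 h in medium with 2% horse serum, and 38B9 cells, a mouse pro-B line. The labels give no genetic background for C2C12 or 38B9. H3 reads hold no expression values, so the labelled cell types could not be checked against their markers.

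The complex holds tandem families of C-type lectin-like receptors through which NK cells read the surface of other cells. The Klra genes encode the Ly49 receptors, most of which bind class I major histocompatibility molecules and either inhibit or activate the NK cell. Klrb1 genes encode NKR-P1 receptors whose ligands are products of the interleaved Clec2 genes, Klrc genes encode NKG2 chains that pair with CD94 (Klrd1), and Klrk1 encodes the activating receptor NKG2D. Cd69, an early activation marker of lymphocytes, and a myeloid group with Clec7a (Dectin-1), Clec9a, Clec12a and Olr1 lie within the same cluster. Tandem duplication left many near-copies, and the number of Klra genes is known to differ between inbred mouse strains.

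In the RefSeq gene table of assembly GRCm38.p6, used for names and order alone because its build is not that of the reads, the complex runs from Klrb1a to Klra2. It opens with 6 Klrb1 genes, of which 1 is a pseudogene, interleaved with 8 Clec2 genes, of which 1 is a pseudogene, and with Cd69 before the last of these, Clec2m. The 7 myeloid lectins follow, then Klre1, Klrd1 and Klrk1, the 3 Klrc genes, the 2 Klri genes and Klrh1. The run ends with 14 Klra genes, of which 3 are pseudogenes. Of the 38 Tas2r bitter taste receptor genes of chromosome 6 none stands between those ends. No gene was placed on the reads, and all positions of bins and windows below are of mm8. Below, the complex means the whole 5 Mb followed here, and which of its bins hold Klr genes was not determined.

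The near-copies matter for this assay because a short read from one can align to another. Promoters of 300 bases (RefSeq, GRCm38.p6) were searched for words of 36 bases, the aligned seed length, that occur exactly in the promoter of another gene on either strand. Of the 29 Klr and Clec2 genes with a promoter entry 14 (48.3%) held such a word, and so did 7 of 11 Klra genes, against 6075 of 27025 genes (22.5%) in the whole table. The 2 Klrc promoters below show the closest case and the 2 Klra promoters a more diverged one. All are from the minus strand of chromosome 6, written 5′ to 3′, with the bases that lie in a word shared with the partner in capitals.
Klrc2: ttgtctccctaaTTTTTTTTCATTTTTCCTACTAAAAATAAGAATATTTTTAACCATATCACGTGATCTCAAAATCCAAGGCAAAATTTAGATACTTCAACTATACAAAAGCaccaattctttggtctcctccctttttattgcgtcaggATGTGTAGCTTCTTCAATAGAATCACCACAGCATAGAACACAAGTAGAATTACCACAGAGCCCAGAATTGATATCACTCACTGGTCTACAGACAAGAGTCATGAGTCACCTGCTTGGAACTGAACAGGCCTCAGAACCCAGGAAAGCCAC
Klrc3: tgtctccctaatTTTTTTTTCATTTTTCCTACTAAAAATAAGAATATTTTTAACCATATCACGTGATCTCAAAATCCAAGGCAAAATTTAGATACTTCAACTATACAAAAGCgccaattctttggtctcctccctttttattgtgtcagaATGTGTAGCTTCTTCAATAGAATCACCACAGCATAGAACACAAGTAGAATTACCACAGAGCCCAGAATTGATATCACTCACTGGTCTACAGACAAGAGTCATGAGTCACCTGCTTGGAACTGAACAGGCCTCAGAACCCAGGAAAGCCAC
Klra9: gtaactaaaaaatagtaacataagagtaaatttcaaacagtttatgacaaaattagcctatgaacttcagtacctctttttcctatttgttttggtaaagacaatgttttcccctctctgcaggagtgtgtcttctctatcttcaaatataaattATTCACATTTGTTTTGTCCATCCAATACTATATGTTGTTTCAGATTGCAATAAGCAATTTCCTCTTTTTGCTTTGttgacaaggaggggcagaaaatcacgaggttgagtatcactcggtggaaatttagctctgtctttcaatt
Klra3: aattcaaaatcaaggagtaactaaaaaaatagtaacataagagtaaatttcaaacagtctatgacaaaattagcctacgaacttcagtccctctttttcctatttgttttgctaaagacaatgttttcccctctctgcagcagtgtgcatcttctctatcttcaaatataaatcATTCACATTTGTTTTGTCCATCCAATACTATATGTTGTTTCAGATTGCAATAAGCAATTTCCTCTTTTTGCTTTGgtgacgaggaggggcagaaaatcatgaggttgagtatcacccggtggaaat
Klrc2 and Klrc3 had 180 of 265 words in common, covering 250 of the 300 bases. Klra9 and Klra3 had 40 of 265 words in common, covering 75 bases. An exact 36-base read from the capitals fits both genes of a pair. Since up to 2 mismatches were allowed in the alignment, reads over the lower-case letters can fit both as well, so the shared words are a lower limit.

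The deposited reads come in a section read here as reads with 1 place in the genome, and a section of reads with 2 places, listed at both. Levels below are distinct signed positions of 1-place reads, so that repeated reads count once, and ratios are of each library's share of its autosomal total. The autosomal totals were between 12432118 (myotube) and 13469179 (SB431542) positions. The interval given with a ratio is an exact conditional binomial 95% interval and covers counting error only, since 1 library per group leaves no replicate check and no test between conditions. Without an input library a ratio holds both the number of DNA copies and how much H3 each copy gave. It also depends on how many of the reads aligned to mm8 at 1 place, and these parts cannot be told apart. Per the file headers the SB431542 library came from another sequencing run, so the treatment and the run cannot be told apart.

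As a whole the NK gene complex had slightly fewer 1-place H3 reads in myotubes and slightly more in pro-B cells than in untreated ES cells. It held 20734 distinct positions in untreated ES cells, 20705 with SB431542, 17327 in myotubes and 21570 in pro-B cells, or 4.15, 4.14, 3.47 and 4.31 per kb. The ratio to untreated ES cells was 0.974 (0.955 to 0.993) with SB431542, 0.883 (0.865 to 0.901) in myotubes and 1.05 (1.03 to 1.07) in pro-B cells. The myotube share was 0.841 of the pro-B share (0.824 to 0.858). The left flank gave 0.958, 0.908 and 0.910 for the same 3 libraries, and the right flank 0.990, 0.925 and 0.930. The SB431542 and myotube values thus lay within 0.05 of those of the flanks, whereas the pro-B ratio was above 1 in the complex and below 1 on both sides. Reads with 2 places, as a share of the autosomal 2-place lines, gave 1.07 (1.04 to 1.11) with SB431542, 0.862 (0.829 to 0.897) in myotubes and 0.954 (0.918 to 0.992) in pro-B cells. For pro-B cells and SB431542 the direction over the whole complex thus differed between the 2 kinds of read. Repeated reads made up 2.67% of the 1-place reads of the complex in untreated ES cells, 5.42% with SB431542, 3.26% in myotubes and 2.78% in pro-B cells, and 50.2% to 50.9% of positions were on the plus strand.

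These totals hid large and opposite local differences. In 500 kb windows the pro-B ratio to untreated ES cells was highest from 129000001 to 129500000, at 1.77 (1.69 to 1.86; 2787 positions in untreated ES cells, 2866 with SB431542, 2622 in myotubes and 4898 in pro-B cells). It was 1.33 in the window before, from 128500001, which held 2169, 2277, 1746 and 2867 positions in the same order of libraries. The lowest pro-B ratio was in the last window, from 131500001 to 132000000, at 0.559 (0.512 to 0.609; 1483, 1501, 907 and 821 positions). That window was also the lowest for myotubes, at 0.646 (0.594 to 0.702). In the remaining 7 windows the pro-B ratio was between 0.764 and 1.11, and in the 9 windows other than the last the myotube ratio was between 0.834 and 1.04. The SB431542 ratio stayed between 0.907 and 1.06 in all 10 windows. The low last window was thus shared by myotubes and pro-B cells, and the high windows were seen in pro-B cells and not in myotubes.

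**Figure D1:**
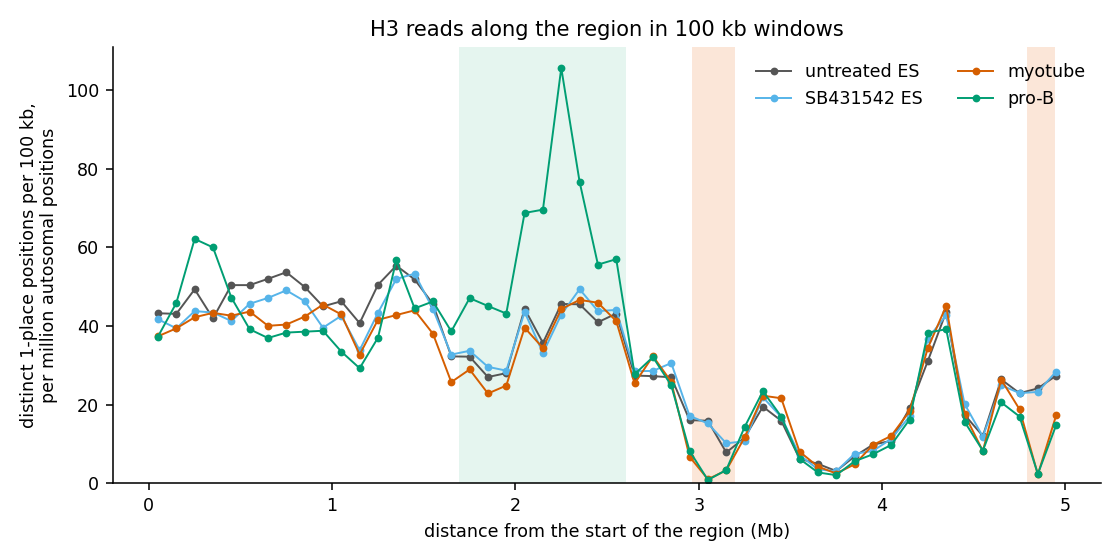
Distinct 1-place H3 positions per 100 kb window scaled to each library's autosomal total (y axis), against the distance from the start of the region in Mb (x axis), 1 line per library. The green band marks the stretch that was higher in pro-B cells, where the pro-B line runs above the other 3, and the 2 orange bands mark the stretches where the myotube and pro-B lines fall towards 0 while both ES lines do not.

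The depth behind these values was uneven along the complex. The first 500 kb window, from 127000001, held 2995 positions in untreated ES cells, and the eighth, from 130500001 to 131000000, held 407, with 398, 365 and 313 in the other 3 libraries. Of the 1000 bins 713 had a mean of at least 10 distinct positions over the 4 libraries and could be read one by one. The other 287 were too thin, and 7 of these held no position in any library. Untreated ES cells had 34 empty bins and SB431542-treated ES cells 39, against 100 in myotubes and 107 in pro-B cells. Of all 492493 autosomal bins 27983, 28014, 29345 and 29525 were empty in the same order of libraries. The left flank had 64, 67, 73 and 72 empty bins of 1000, and the right flank 27, 27, 37 and 41 of 1000. The window with the fewest 1-place reads was also the one with the largest share of 2-place reads.

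Reads with 2 places made up a far larger share of the lines here than on the autosomes as a whole. They were 20.4% of all lines of the complex in untreated ES cells, 22.2% with SB431542, 19.8% in myotubes and 18.4% in pro-B cells, against 5.75% to 5.96% over all autosomes. The left flank gave 13.6% to 15.2% and the right flank 14.8% to 16.4%. In the eighth window, from 130500001, 2-place lines were 77.2%, 79.5%, 76.9% and 76.1% of the lines of the 4 libraries, whereas in the second window, from 127500001, they were 0.950% to 1.32%. These were the highest and the lowest of the 10 windows in every library.

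Per kb the complex held 1.25 times the 2-place lines of its flanks in untreated ES cells (5452 lines in all), 1.30 times with SB431542 (6240), 1.13 times in myotubes (4434) and 1.31 times in pro-B cells (5008). Against flanks of 10 Mb on each side the same ratios were 1.98, 2.08, 1.76 and 2.05, so the size of this excess depended on the flanks chosen. Bins without any 2-place line were 31.1% to 36.5% of the bins of the complex and 54.5% to 56.5% of autosomal bins. The densest bin, 128765001 to 128770000, had 45, 46, 34 and 98 lines in untreated ES, SB431542, myotube and pro-B cells. The next, 129615001 to 129620000, had 52, 51, 34 and 47, beside 0, 1, 1 and 0 positions of 1-place reads. The other 3 of the 5 densest started at 128940001, 129695001 and 128720001. Bins 128765001, 128940001 and 128720001 were highest in pro-B cells, with 98, 63 and 54 lines, and all 3 lie in the stretch described next.

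**Figure D2:**
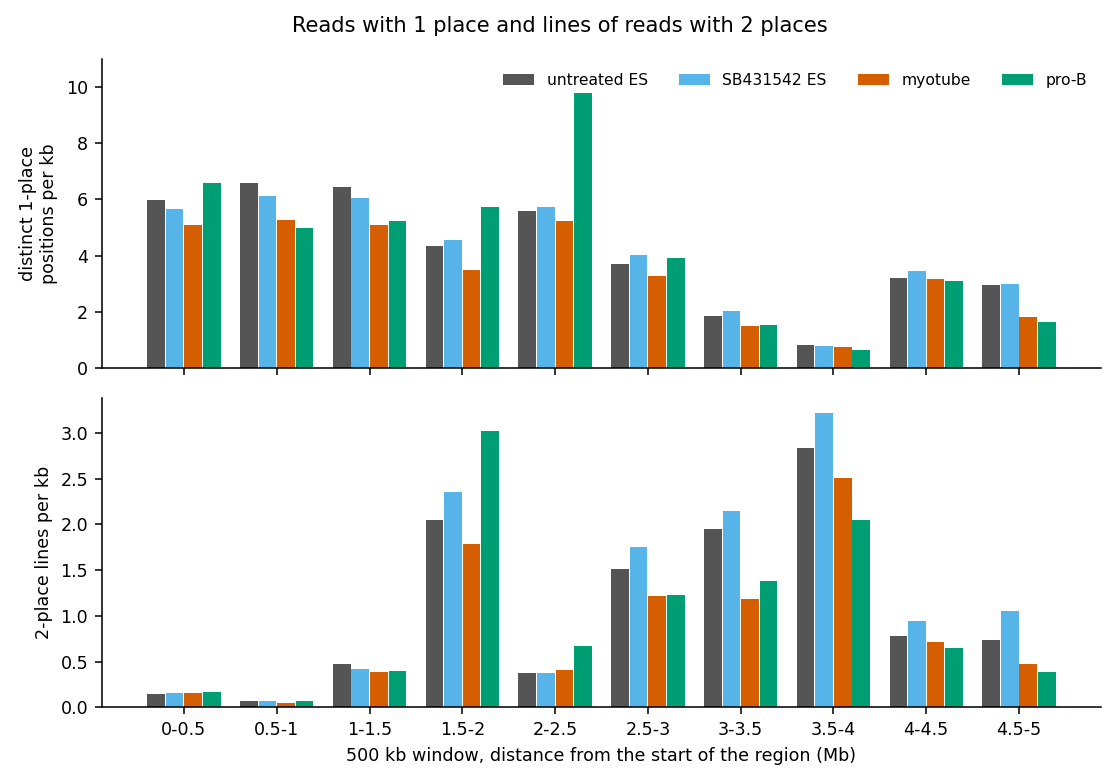
Bars give distinct 1-place positions per kb (top) and 2-place lines per kb (bottom), not scaled to library size, in the 10 windows of 500 kb of the region, ordered by distance from its start in Mb, 1 bar per library. In the window from 3.5 to 4 Mb the top bars are the lowest of the 10 windows and the bottom bars are the highest for both ES libraries and myotubes; the pro-B bars stand out from the other libraries between 1.5 and 2.5 Mb.

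Pro-B cells had more H3 reads across a continuous 900 kb, from 128700001 to 129600000, whose bounds were drawn after the profile had been seen. This stretch held 4500 distinct positions in untreated ES cells, 4699 with SB431542, 4088 in myotubes and 7402 in pro-B cells, or 5.0, 5.22, 4.54 and 8.22 per kb. The pro-B library was the only high one, at 1.66 times the untreated ES share (1.60 to 1.72). The SB431542 ratio was 1.02 (0.977 to 1.06) and the myotube ratio 0.960 (0.920 to 1.00), and both intervals held 1. In 100 kb steps the pro-B ratio was 1.46, 1.67, 1.54, 1.55, 1.95, 2.32, 1.68, 1.36 and 1.32 from end to end. It was 1.20 (1.05 to 1.37) in the window before, so the excess did not begin sharply at the drawn bound, and 1.01 in the window after. The peak of 2.32 (2.10 to 2.55) was from 129200001, with 599 positions in untreated ES cells and 1375 in pro-B cells. All 9 steps were above 1, and the ratio rose towards the middle and fell towards the far end.

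Reads with 2 places gave the same direction there. The stretch held 994 such lines in untreated ES cells, 1108 with SB431542, 903 in myotubes and 1593 in pro-B cells. As a share of all autosomal 2-place lines the pro-B value was 1.66 times that of untreated ES cells (1.54 to 1.80), and the myotube value 0.963 times (0.879 to 1.05). Since each such read is listed at both of its places, these lines are no independent count of the stretch.

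**Figure D3:**
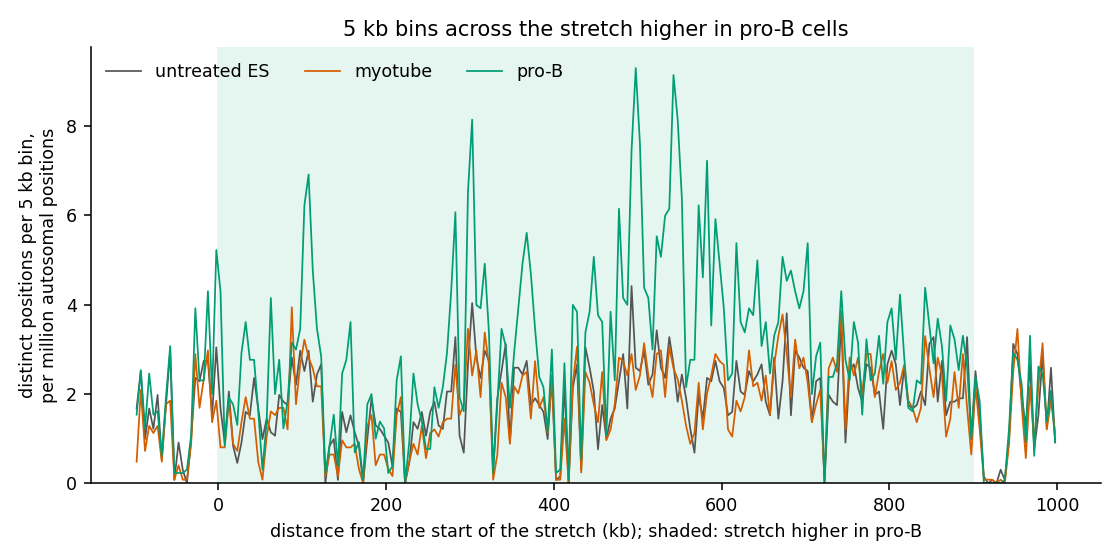
Distinct 1-place positions per 5 kb bin scaled to each library's autosomal total (y axis) in untreated ES cells, myotubes and pro-B cells, against the distance in kb from the start of the stretch that was higher in pro-B cells (shaded). The pro-B line runs above the others over most of the shaded part, with its highest points near the middle, and comes close to them after the stretch ends.

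Single bins were called higher or lower where the log2 ratio of scaled counts, with 0.5 added to each, was at least 1 in size. For pro-B against untreated ES cells 63 of the 713 readable bins were higher (8.84%), where 3.64% of autosomal bins were, and 47 were lower (6.59%), where 4.31% were. The left flank had 15 higher and 64 lower of 808, and the right flank 20 higher and 53 lower of 819. Bins higher in pro-B cells were thus more frequent in the complex than in either flank, while the share of lower bins was between those of the flanks (7.92% and 6.47%). Which direction had more calls depended on the setting: with 2-place lines added 56 bins were higher and 69 lower (44.8% of calls higher), and without the filter on thin bins 95 and 171 (35.7%). Of the 164 readable bins inside the 900 kb stretch 44 were higher and 1 lower, and the pro-B ratio was above 1 in 145. In the other 549 bins of the complex 19 were higher and 46 lower. The bounds of the stretch were drawn on this profile, so the contrast between inside and outside is no separate evidence for it. The same holds for the runs and 1 kb windows placed inside it below.

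The bin with the largest pro-B increase, 129150001 to 129155000, held 10 positions in untreated ES cells, 7 with SB431542, 17 in myotubes and 49 in pro-B cells, a ratio of 4.94 (2.47 to 10.9). The better filled bin from 129245001 held 24, 30, 29 and 106, a ratio of 4.46 (2.84 to 7.26). The next in order were bins from 131255001 (4.20), 129265001 (4.04) and 129195001 (3.59). The bin from 131255001 was the 1 of these 5 outside the stretch, and there untreated ES cells were the low library, with 18 positions against 47, 39 and 75. In the other 4 bins pro-B cells stood alone above the other 3 libraries.

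Called bins also lay side by side. Pro-B cells had 7 runs of at least 3 neighbouring higher bins, against none in either flank, and 3 runs of lower bins, against 3 in the left flank and 1 in the right. Runs were counted in the complex and its flanks only, so whether 7 is many for the autosomes is not known. The strongest run, 129240001 to 129255000, held 91 positions in untreated ES cells, 94 with SB431542, 84 in myotubes and 308 in pro-B cells, a ratio of 3.42 (2.69 to 4.36). The run from 129260001 to 129285000 followed at 3.07, and those from 129145001, 128800001, 128990001 and 129060001 had ratios of 2.72, 2.45, 2.21 and 2.20. These 6 lie within the stretch, and the seventh, from 127205001 to 127220000, had a ratio of 2.31.

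At 1 kb, a window was taken as higher in 1 library when it held at least 20 positions there with a scaled count 3 times that of the next library or more. Pro-B cells had 18 such windows of the 5000 in the complex (0.36%), against 0.171% over the autosomes, and 14 of them were within the 900 kb stretch. The left flank had 5 and the right flank 3. The window from 129250001 led with 4, 4, 3 and 30 positions, 7.57 times the next library (2.67 to 29.6), and its pro-B positions were spread over 14 on the plus and 16 on the minus strand. Windows from 129248001 (36 pro-B positions, 5.32 times the next library) and 129242001 (40 positions, 4.60 times) lay within 10 kb of it. The rest of the leading 10 started at 129278001, 129199001, 129202001, 129270001, 131259001, 128803001 and 129198001, with ratios from 3.41 to 3.87. All counts are of distinct positions, so by the rule itself no window could rest on 1 repeated read. The windows were picked for their high ratios, and the ratios and intervals are not adjusted for that choice.

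Myotubes and SB431542-treated ES cells had no such window in the complex, where 0.00487% and 0.00158% of autosomal windows passed. Untreated ES cells had 1, from 128185001, with 24 positions against 7, 7 and 4, where the autosomal share was 0.00106%.

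The complex also held 2 stretches that were nearly empty in myotubes and pro-B cells and held reads in both ES libraries. They lie near 3 Mb from the start of the complex and close to its end, and whether they hold Klr genes was not determined. The first, 220 kb from 129970001 to 130190000, held 362 distinct positions in untreated ES cells, 379 with SB431542, 24 in myotubes and 19 in pro-B cells. The second, 145 kb from 131795001 to 131940000, held 452, 442, 29 and 33. Untreated ES cells had only 1.65 positions per kb in the first stretch and 3.12 in the second, against 4.15 over the whole complex. Of the 44 bins of the first stretch 7 were readable, and of the 29 bins of the second 14 were. Both pairs of libraries were far apart in each stretch, and within each pair the counts were close. The bounds of both were drawn after the profile had been seen. Both ES libraries are of 1 line and background, and the labels give no background for the other 2 lines, so cell type and genetic background cannot be told apart in these values.

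The ratio to untreated ES cells in the first stretch was 0.0700 (0.0443 to 0.106) in myotubes and 0.0530 (0.0315 to 0.0839) in pro-B cells. In the second it was 0.0678 (0.0449 to 0.0987) and 0.0737 (0.0501 to 0.105). SB431542-treated ES cells stood at 1.02 (0.882 to 1.18) and 0.953 (0.834 to 1.09). Myotubes against pro-B cells gave 1.32 (0.694 to 2.55) and 0.920 (0.539 to 1.56), so no difference between these 2 libraries was detectable in either stretch at this depth.

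On 3 of the 4 sides all libraries held reads again within 25 kb. The 25 kb after the first stretch held 90 positions in untreated ES cells, 90 with SB431542, 73 in myotubes and 90 in pro-B cells, and the 25 kb after the second held 109, 117, 88 and 73, where the pro-B ratio was still 0.676 (0.495 to 0.917). Before the second stretch the 25 kb held 83, 99, 66 and 63. Before the first stretch they held 26, 24, 9 and 8, so the myotube and pro-B libraries were already low on that side.

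**Figure D4:**
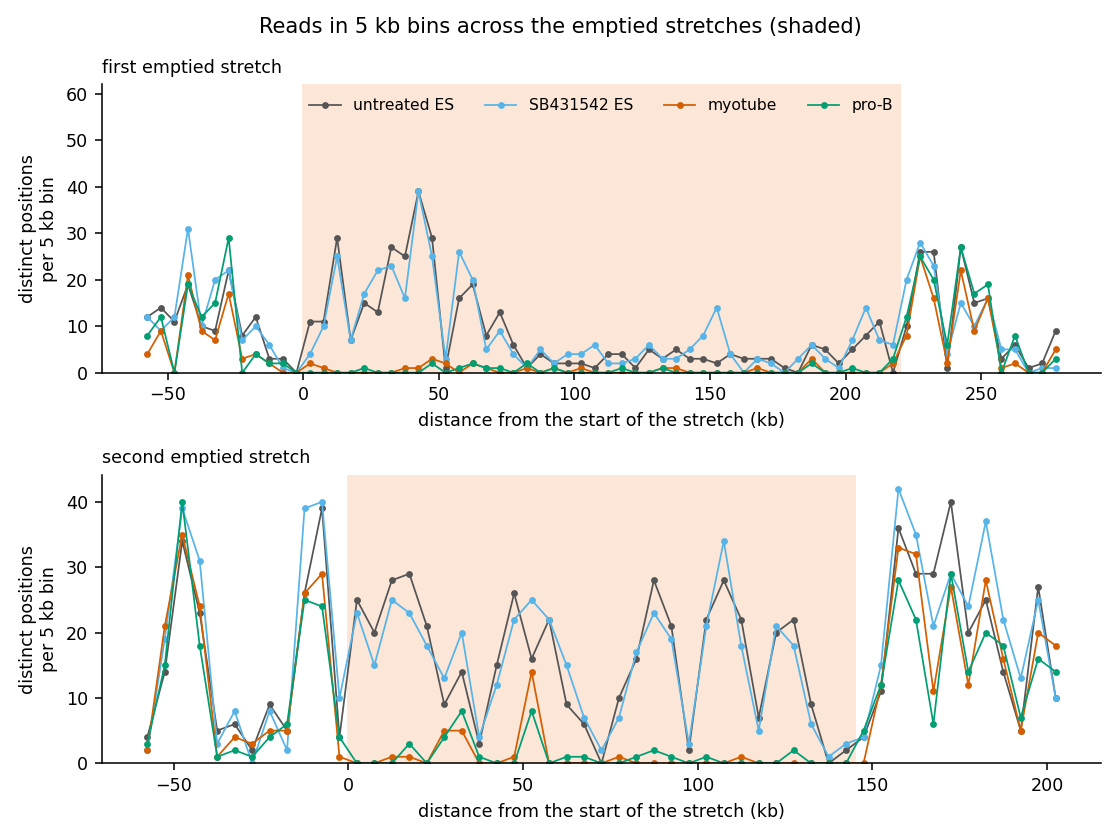
Distinct 1-place positions per 5 kb bin (y axis, not scaled to library size) in the 4 libraries, against the distance in kb from the start of the first (top) and second (bottom) emptied stretch, which are shaded. Untreated and SB431542-treated ES cells follow each other inside the shading while myotubes and pro-B cells stay near 0, and both rise again after each stretch ends.

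Reads with 2 places fell less than 1-place reads in these stretches. The first held 455 such lines in untreated ES cells, 501 with SB431542, 173 in myotubes and 199 in pro-B cells. The second held 87, 109, 53 and 30. As shares of the autosomal 2-place lines, the myotube ratio to untreated ES cells was 0.403 (0.336 to 0.481) in the first and 0.646 (0.450 to 0.919) in the second, and the pro-B ratio 0.454 (0.383 to 0.538) and 0.358 (0.228 to 0.548). A 2-place line in these stretches is also listed at a second place, so it does not show from which of the 2 the DNA came. The 2-place counts therefore do not give the level of the stretches themselves.

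Gaps without a single 1-place position were listed as well. Counting stretches of over 10 kb that were free of positions in 1 library and held at least 30 in each ES library, myotubes had 10, of 247.551 kb in all, and pro-B cells had 7, of 131.292 kb. Of the 10 myotube gaps 1, of 29.265 kb from 131491587, was in neither stretch. In the longest myotube gap, 37.632 kb from 131908931 to 131946562, untreated ES cells had 67 positions, SB431542-treated ES cells 64 and pro-B cells 7. In the longest pro-B gap, 30.721 kb from 129962000 to 129992720, they had 66 and 57, and myotubes had 3. The gap from 131874198 to 131908929, of 34.732 kb, had 139, 134, 0 and 5 positions. No such gap was counted for either ES library. As worded the rule cannot be met by an ES library, so this is no contrast with myotubes and pro-B cells. It also asks for no positions in 1 library and reads in both ES libraries, so the difference inside a gap is set in advance. Lines of 2-place reads did fall in gaps, with 63 in myotubes and 95 in untreated ES cells in the myotube gap from 130156755. No count for the flanks or the autosomes stands beside the 10 and 7 gaps, so whether these are many is not known.

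A rule on single bins, added after the profile had been seen, counted bins with at least 10 positions in each ES library and at most 2 in myotubes and in pro-B cells. It took 25 of 699 bins of the complex (3.58%), none of 805 in the left flank, 6 of 803 in the right flank (0.747%) and 209 of 429197 on the autosomes (0.0487%). The whole 5 Mb followed here thus held 12% of all such autosomal bins. Of the 25, 9 were in the first stretch, 15 in the second and 1, from 129920001, before the first. Together they held 541 positions in untreated ES cells, 518 with SB431542, 8 in myotubes and 11 in pro-B cells. The rule itself asks for this contrast, so these sums are no separate result. Among the 503 autosomal windows of 5 Mb cut from each chromosome's start, the one on chromosome 6 from 130000001 came second with 26 bins, after chromosome 4 from 110000001 with 72 and before chromosome 4 from 120000001 with 23.

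No bin of the complex, the flanks or the autosomes met the reverse rule, with at least 10 positions in myotubes and pro-B cells and at most 2 in each ES library. Since no autosomal bin met it, its absence is nothing particular to the complex. No bin of the complex was emptied in myotubes alone, where 0.0396% of autosomal bins were, nor in pro-B cells alone, where 0.0258% were. None was emptied in a single ES library, where 0.00143% (untreated) and 0.00119% (SB431542) of autosomal bins were. With shares this small, a count of none is no result about the complex. Of the 6 bins in the right flank 5 lay side by side from 132605001 to 132630000.

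The deepest single bins were in the same 2 stretches, whose bounds were drawn on the same profile. Bin 130010001 to 130015000 had 39 positions in untreated ES cells, 39 with SB431542, 1 in myotubes and 0 in pro-B cells, at least 12.9-fold lower in pro-B cells when 0 is set at 3 counts. That bound takes the ES count as exact, and the interval, which does not, allows a ratio of up to 0.1001. Bin 129980001 to 129985000 had 29, 25, 0 and 0, at least 9.15-fold lower in myotubes and at least 9.58-fold lower in pro-B cells, with intervals reaching 0.143 and 0.137. Bin 131900001 to 131905000 had 28, 34, 0 and 0, at least 8.84-fold and 9.25-fold lower, with intervals reaching 0.149 and 0.142. Bins from 130000001 (27, 23, 0 and 0) and 131795001 (25, 23, 0 and 0) had the same pattern, as did 131805001 (28, 25, 1 and 0) and 131880001 (28, 23, 0 and 2).

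Bins at 0 in 1 library with a mean of at least 10 over the other 3 numbered 16 of 723 for myotubes (2.21%), where 0.0539% of autosomal bins did, and 14 of 714 for pro-B cells (1.96%), where 0.0394% did. The left flank had none and the right flank 3 for each library. In the complex 9 bins were at 0 in both, and none was at 0 in untreated ES cells, where 0.000462% of autosomal bins were, or with SB431542, where 0% were. All 21 bins at 0 in myotubes or pro-B cells were in the 2 emptied stretches. The bounds of those stretches were drawn on the same profile, so this placement is no separate result. Untreated ES cells held between 13 and 39 positions in these 21 bins. Neighbouring called bins formed runs here too. Bins from 130000001 to 130020000 held 120, 103, 5 and 2 positions, with ratios of 0.0440 (0.0140 to 0.106) in myotubes and 0.0168 (0.00201 to 0.0621) in pro-B cells. Bins from 131895001 to 131910000 held 72, 73, 1 and 1, with ratios of 0.0147 and 0.0140. Both runs were low in both libraries, on counts of at most 5. Another run lower in pro-B cells, 127710001 to 127725000, had a ratio of 0.418 and lay outside the emptied stretches.

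**Figure D5:**
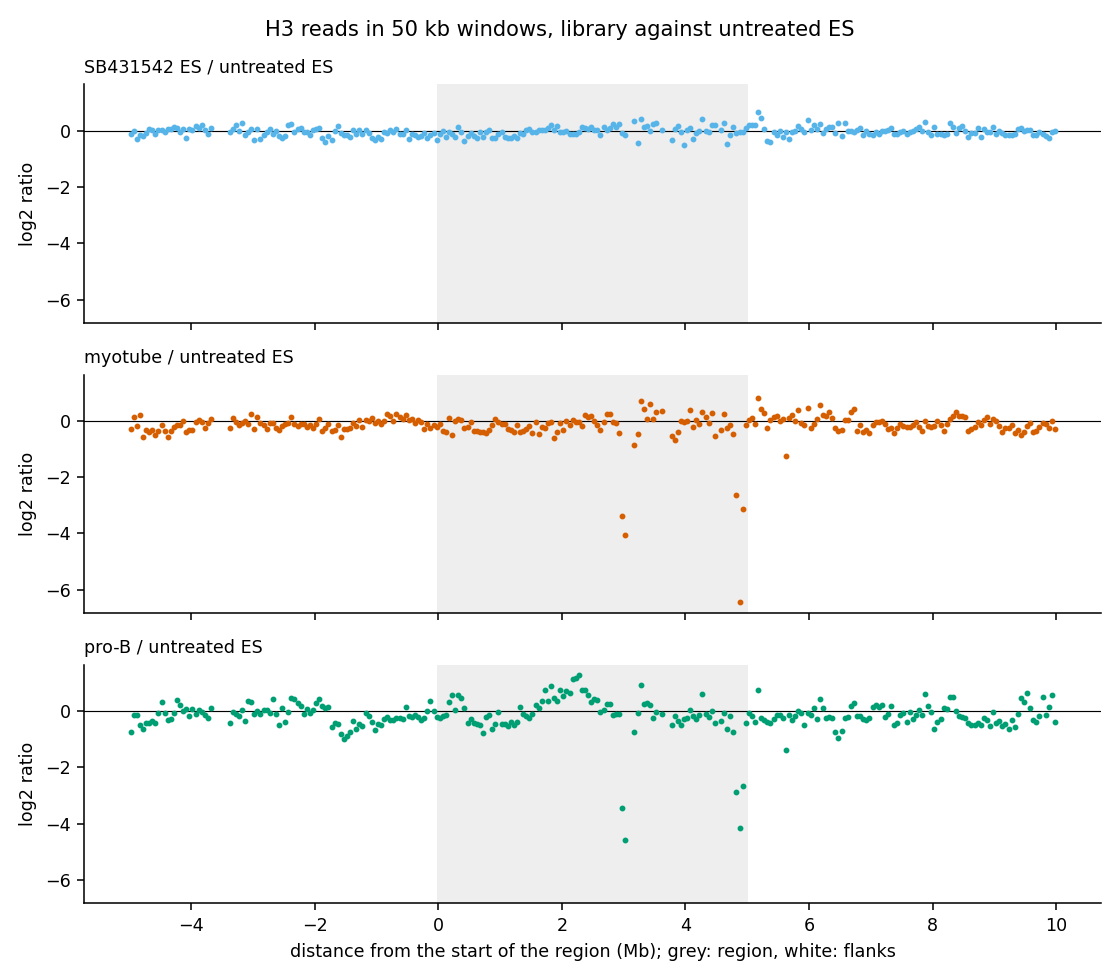
Log2 ratio of each library to untreated ES cells (y axis) in 50 kb windows with enough reads, against the distance in Mb from the start of the region (x axis), with the region in grey and its flanks in white, 1 panel per library. SB431542 points lie along 0, pro-B points rise above 0 near 2 Mb, and myotube and pro-B points drop to large negative values near 3 and 4.9 Mb.

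For myotubes against untreated ES cells 14 of the 713 bins were higher (1.96%), where 1.57% of autosomal bins were, and 45 were lower (6.31%), where 2.23% were. The left flank had 7 higher and 25 lower of 808 and the right flank 14 and 29 of 819. Of the 45 lower bins 7 were in the first emptied stretch and 13 in the second. With myotubes and pro-B cells near 0 there, a bin reached the mean of 10 almost only through the ES libraries. A lower call in these stretches was thus nearly fixed by the filter, also for the 7 and 12 bins called lower there in pro-B cells. No run of 3 higher bins was found in myotubes. The highest bins started at 131090001, with 5, 13, 18 and 5 positions (ratio 3.80, 1.36 to 13.1), and at 130420001, with 13, 13, 43 and 27 (3.49, 1.84 to 7.08). Those from 128990001, 129880001 and 129490001 followed at 2.58, 2.46 and 2.38. In these 3 bins SB431542-treated ES cells and pro-B cells were above untreated ES cells as well, with 9, 17, 22 and 21 positions in the first, 6, 19, 14 and 14 in the next and 16, 30, 36 and 29 in the last, and in the bin from 130420001 pro-B cells were.

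The comparison of the 2 ES libraries gives the scale of differences without a change of cell line, though with another run and a treatment. With SB431542 12 of 713 bins were higher (1.68%), where 0.818% of autosomal bins were, and 4 were lower (0.561%), where 0.842% were. When the bins were shifted by 2500 bases the counts were 6 and 17, so their direction depended on where the bins began. There was no run of 3 called bins in either direction. The highest bin, from 131570001, held 5 positions in untreated ES cells, 20 with SB431542, 10 in myotubes and 9 in pro-B cells (ratio 3.90, 1.42 to 13.3). The next 4 started at 129880001 (3.09), 131260001 (2.56), 131255001 (2.55) and 131090001 (2.54). Untreated ES cells were the lowest or tied for the lowest of the 4 libraries in all 5. These bins were ranked by their ratio to untreated ES cells, which by itself favours bins where that library is low. The highest myotube and pro-B bins above were ranked in the same way.

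The lowest SB431542 bins started at 130990001, with 18, 6, 17 and 11 positions (ratio 0.325, 0.106 to 0.855), at 131105001 (0.390) and at 130405001 (0.433). The bins from 128185001 and 128130001 followed at 0.488 and 0.503, the last just short of the size called. The first held a count of 6, and the intervals of the next 2 reached 1.06 and 1.55, the last of these on 9 against 4 positions. The bin from 128185001 contains the single window of 1 kb in which untreated ES cells exceeded the other 3 libraries.

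Windows of 100 kb, of which 45 in the complex had a mean of at least 100 positions, put the 3 comparisons on 1 scale. The standard deviation of the log2 ratio over windows was 0.13 with SB431542, 0.78 in the myotube and 0.92 in the pro-B comparison. In the left flank it was 0.12, 0.16 and 0.28, and in the right flank 0.11, 0.19 and 0.26. The SB431542 spread in the complex was close to that of the flanks, and the other 2 were wider. Those 2 include the windows on the emptied stretches. The lowest log2 ratios, -3.88 in myotubes and -4.17 in pro-B cells, were in the window from 130000001. The spread without such windows was not computed. Under the same size rule no window was called with SB431542, where 0% were on the autosomes. Myotubes had 3 lower, where 0.141% were, and none higher, where 0.0599% were. Pro-B cells had 1 higher, where 0.651% were, and 2 lower, where 0.184% were. Myotubes against pro-B cells gave none higher, where 0.651% were, and 2 lower, where 0.967% were.

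Set directly against pro-B cells, myotubes were higher in 21 bins (2.95%), where 4.44% of autosomal bins were, and lower in 75 (10.5%), where 4.53% were. Of the 75, 47 were in the 900 kb stretch that was higher in pro-B cells, among its 164 readable bins, and none of the 21 was. The complex had 7 runs of at least 3 lower bins in this comparison, the left flank none and the right flank 1. Here too, runs were not counted over the autosomes. Both comparisons use the same pro-B library, so they are not separate evidence for the stretch.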

How the data were processed

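Total H3 ChIP-seq was measured in 4 mouse libraries, 1 per group. The authors deposited 1 signed genome position for each aligned read (negative on the minus strand), without counts or normalization. The file headers name Bowtie, with build mm8; its version is not given in the sources used here. Per those headers the seed was 36 bases long with up to 2 mismatches, the mismatch quality limit was 70, and reads with over 2 places were dropped. Per the labels' protocols, fragments went through 18 cycles of PCR. The 2 sections of each file were read as reads with 1 and with 2 places, a reading inferred from the section names and the alignment options.

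Distinct signed 1-place positions were counted in bins of 5 kb with Python 3.11.15, numpy 2.4.6 and scipy 1.17.1, and divided by each library's autosomal total. Bins with a mean of at least 10 positions were called at a log2 ratio of 1, with 0.5 added. Intervals are exact conditional binomial (Clopper-Pearson) at 95%. They are not adjusted for the choice of the most extreme bins, runs and windows. A group at 0 was set at 3 counts for a bound. PCR reads are not independent molecules, so intervals and bounds cover counting error only. The code was tested on simulated data. Named bins were the 5 highest and 5 lowest per comparison with untreated ES cells, runs of at least 3 called bins, bins at 0 in 1 library, the 5 with the most 2-place lines and up to 10 windows of 1 kb per library. Members and lists were chosen with earlier results of these data known. Alternatives were tried for scaling, repeats, 2-place reads, strand, filters, bin size and bin start.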

Additional observations from a re-analysis of the deposited data

How the results depend on the processing

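No paired analysis was possible because each group has 1 library. Of 201 values of the main results under alternative settings, 138 stayed within their interval or within 1.5 times the main count, and of 120 for single named bins 116 did so. Among the rest the cause was not tested. Scaling to the flanks gave 1.00 for the whole region with SB431542, 0.963 in myotubes and 1.14 in pro-B cells, and 1.80 (pro-B) and 1.05 (myotubes) for the 900 kb stretch. Scaling to the median autosomal bin gave 1.14 for the region and 1.80 for the stretch in pro-B cells, and 0.785 for myotubes against pro-B cells. The flanks shifted all log2 ratios by 0.13 in myotubes and 0.12 in pro-B cells, and the median bin shifted them by 0.11 in pro-B cells and by -0.10 for myotubes against pro-B cells. Under the flanks the myotube split became 18 higher and 35 lower bins, 34.0% higher in place of 23.7%. With the SB431542 library as the reference the region was 0.907 in myotubes and 1.08 in pro-B cells. With 2-place lines added the region was 0.994 with SB431542 and 1.02 in pro-B cells, the first emptied stretch 0.255 (myotubes) and 0.266 (pro-B), and the second 0.159 and 0.118. With 2-place lines alone these were 0.403 and 0.454, then 0.646 and 0.358, with 1.18 for SB431542 in the second. Adding 2-place lines also left 9 bins higher in myotubes and turned bin 129880001 in myotubes to -0.034 on the log2 scale.

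Counts of called bins, higher then lower, were as follows. A size of 0.7 gave 35 and 27 with SB431542, 29 and 81 in myotubes, 112 and 92 in pro-B cells, and 47 and 135 for myotubes against pro-B cells. A mean of at least 20 gave 4 and 1, 7 and 15, 52 and 18, and 6 and 55. No filter gave 58 and 50, 49 and 153, 95 and 171, and 78 and 127. Bins of 10 kb gave 2 and 0, 4 and 29, 27 and 26, and 7 and 37. Shifting the bins gave 6 and 17 with SB431542, and keeping repeated reads gave 7 lower. Flanks of 10 Mb gave 1.98, 2.08, 1.76 and 2.05 times their 2-place lines in untreated ES, SB431542, myotube and pro-B cells. At 2 times the next library pro-B cells had 52 windows of 1 kb. Bins emptied in myotubes and pro-B cells numbered 11 with at most 0 positions allowed there, 38 with at least 5 asked of the ES libraries and 11 with at least 20. Depth limits single bins, whose counts were often under 30, and the part from 130500001 to 131000000, where 1-place reads were fewest.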
